A study of Homo sapiens with 15 samples.

Results

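The lamins and the proteins of the inner nuclear membrane were examined as a set of 10 listed genes among the 57272 genes in the table. These are LMNA, LMNB1 and LMNB2, LBR, the LEM domain genes TMPO, EMD and LEMD3, BANF1, and SUN1 and SUN2. All 10 were found and all 10 were among the 15799 genes with enough reads to be tested.

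RNA was sequenced from MRC-5 cells, a widely used strain of human fetal lung fibroblasts with a finite lifespan in culture, in 5 groups of 3 libraries. Young cells at population doubling (PD) 30 carried the empty vector pWPIR-GFP with a control siRNA, the vector pWPIR-GFP-TRF2 with the control siRNA, or the empty vector with an siRNA pool against LMNB1 (siLMNB1). Senescent cells carried the empty vector (PD 71) or the TRF2 vector (PD 75) and had received their virus at a pre-senescent stage. The headers of their counts name the control siRNA, while the methods of the paper describe a transfection for the young cells only. All groups were thus infected with a lentivirus, and all were grown at low oxygen. According to their labels the senescent libraries were taken over from a previous deposit, so deposit and state of the cells cannot be told apart in any comparison of senescent with young cells.

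Total counts per library lay between 26725885 and 43116046. Relative to young cells with the empty vector, log2 counts rose with the GC content of genes by 0.46 to 0.823 per 10 points in the senescent libraries and by −0.00633 to 0.134 in the young ones. The highest slope belonged to the third senescent library with the empty vector, which stood apart from the other replicates. Values without it are given below. TERF2, which encodes TRF2, was at 21.9 to 26 CPM (reads per 1000000 counted reads, with TMM factors) in the groups without the TRF2 vector and at 128 to 307 CPM with it. The highest value was that of young TRF2 replicate 2, against 128 and 149 CPM in replicates 1 and 3. Fibroblast markers summed to between 20033 and 33387 CPM, with 0 of the 8 genes at 0 in any library, whereas blood cell markers summed to at most 3.53 CPM. Of the epithelial markers, SFTPC was at 0 in 15 libraries, and the list summed to at most 0.928 CPM except in young replicate 1 with the empty vector (11.7 CPM). The endothelial markers PECAM1 and CDH5 reached at most 0.326 and 0.127 CPM, while TEK lay between 19.8 and 69.3 CPM in all libraries.

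Lamins are intermediate filament proteins that line the inside of the nuclear envelope. LMNA gives the A-type lamins, LMNB1 and LMNB2 the B-type lamins, which stay farnesylated and bound to the membrane. LBR and the LEM domain proteins span the inner membrane and tether chromatin to this layer, the latter through the DNA-binding protein barrier-to-autointegration factor (BANF1), and the SUN proteins link the lamina through the envelope to the cytoskeleton. Loss of lamin B1 is a widely used marker of senescence in fibroblasts.

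LMNB1, TMPO, LBR and LMNB2 fell in senescent cells with the empty vector, in senescent cells with TRF2 and after siLMNB1. The falls of LMNB1, TMPO and LBR were more than 2-fold in each comparison and that of LMNB2 was smaller. SUN1, EMD and BANF1 were not called in any of these 3 comparisons. Of the 10 genes, 4 (40%) were lower in all 3 comparisons, against 1308 (8.28%) of the genes tested. LMNB1 is among the 4 and is the target of the siRNA, so its fall after siLMNB1 was set by the design. The comparison of senescence with the empty vector and that of siLMNB1 share the 3 young libraries with the empty vector, so their calls are not independent.

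In senescent against young cells with the empty vector, 4 of the 10 genes fell and 1 rose, where 31.9% of all genes tested fell and 32.7% rose. With a fall of at least 1 on the log2 scale in addition, 3 of 10 genes remained, against 11.8% of all genes. The median log2 fold change was −0.28 over the 10 genes and 0.02 over all genes. With TRF2 in both states, 4 fell and 0 rose (background 30.1% and 28.2%), 3 of them by at least 1 on the log2 scale (background 12.1%). After siLMNB1, 6 fell and 0 rose (background 16.1% and 16.4%), 3 of them by at least 0.58 on the log2 scale (background 8.06%), and one of the 3 is the targeted gene itself. The siLMNB1 background depends on the scaling: of all genes 2586 rose and 2551 fell, 3266 and 2065 with library totals only, and 2386 and 3841 with offsets for GC content and length. In bulk RNA, fewer cells that express a gene and less RNA per cell cannot be told apart.

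**Figure D1:**
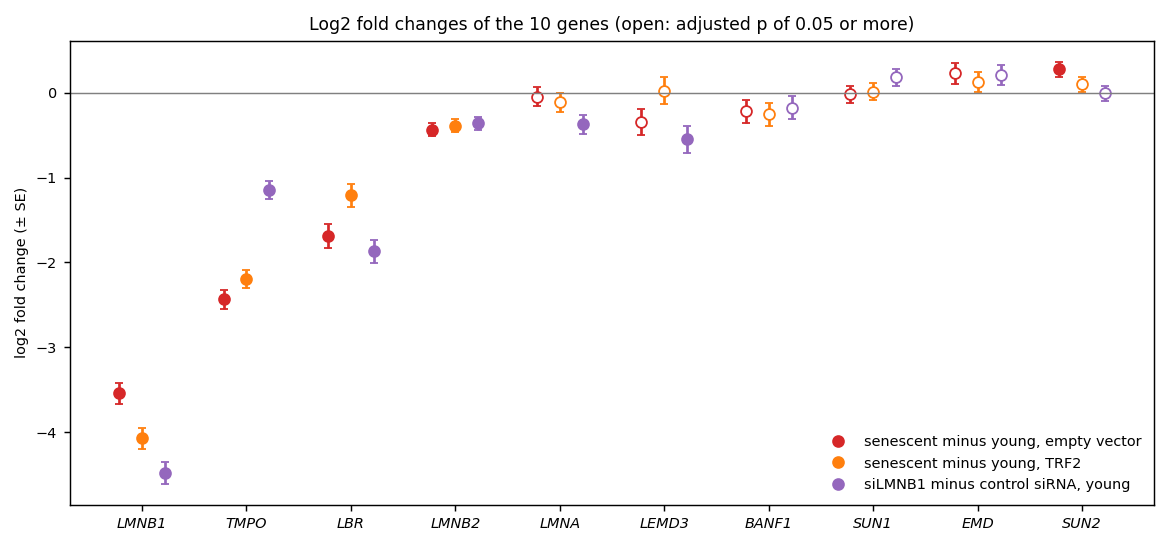
Log2 fold change (y axis, ± SE) of each of the 10 genes in senescent against young cells with the empty vector, senescent against young cells with TRF2, and siLMNB1 against control siRNA in young cells, with 3 libraries a group. Filled points passed an adjusted p of 0.05: LMNB1, TMPO, LBR and LMNB2 lie below 0 in all 3, and the other 6 genes lie between −0.55 and 0.28.

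LMNB1 (ENSG00000113368, GRCh38 chr5:126776623-126837020, plus strand) is both the targeted gene of the siRNA and the gene of the set with the largest change. In young cells with the empty vector it was at 61.0, 59.5 and 58.6 CPM, and with TRF2 at 55.4, 53.9 and 59.4 CPM. After siLMNB1 it was at 2.36, 2.91 and 2.75 CPM, which rests on 72 to 125 reads per library. In senescent cells it was at 5.65, 5.15 and 4.60 CPM with the empty vector and at 2.68, 3.69 and 3.65 CPM with TRF2. The young libraries without siLMNB1 lay far above all others, and the knock-down and senescent TRF2 libraries overlapped in the range below 3.7 CPM.

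LMNB1 fell by 3.54 on the log2 scale in senescence with the empty vector (SE 0.12, adjusted p = 8.26e-13) and by 4.07 with TRF2 (SE 0.13, adjusted p = 1.83e-13). It fell by 4.48 after siLMNB1 (SE 0.13, adjusted p = 2.3e-12). The mean level left was 8.60% of that of young cells with the empty vector in senescent cells with the empty vector, 5.59% in senescent cells with TRF2 and 4.47% after siLMNB1. Ranked from the lowest fold change among 15799 genes, LMNB1 was at position 257 and 259 in the senescence comparisons and at position 2 after siLMNB1. Without the third senescent library the fall was 3.49 on the log2 scale.

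LMNB2 (ENSG00000176619), the other B-type lamin gene, fell less. It was at 227, 218 and 222 CPM in young cells with the empty vector and at 205, 216 and 213 CPM in young cells with TRF2. After siLMNB1 it was at 163, 171 and 185 CPM. In senescent cells it was at 179, 158 and 157 CPM with the empty vector and at 158, 163 and 164 CPM with TRF2. Each library of the knock-down and senescent groups was below each young control library. The log2 fold changes were −0.43 (SE 0.08, adjusted p = 0.000114), −0.39 (SE 0.08, adjusted p = 0.000364) and −0.36 (SE 0.08, adjusted p = 0.00174) in the same order of comparisons. The exons of LMNB2 have a GC content of 62.3%, and with offsets for GC content and length its fall in senescence with the empty vector was 1.26 on the log2 scale and with TRF2 1.01.

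LMNA (ENSG00000160789) gives lamins A and C and was the most abundant of the 10 genes per kb in all 5 groups. It was at 1396, 1393 and 1354 CPM in young cells with the empty vector and at 1340, 1254 and 1426 CPM in young cells with TRF2. After siLMNB1 it was at 1027, 1032 and 1142 CPM, below all young control libraries. In senescent cells it was at 1237, 1130 and 1648 CPM with the empty vector and at 1198, 1272 and 1242 CPM with TRF2. The third senescent library was above, and the other 2 below, the young libraries with the empty vector.

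The log2 fold change of LMNA was −0.37 after siLMNB1 (SE 0.11, adjusted p = 0.0174), and this call was lost when young replicate 1 or 2 or siLMNB1 replicate 1 or 2 was left out (adjusted p 0.0536 to 0.0673). In senescence it was −0.05 with the empty vector (95% interval −0.29 to 0.20, adjusted p = 0.736) and −0.11 with TRF2 (95% interval −0.36 to 0.13, adjusted p = 0.395). Without the third senescent library the first of these was −0.24 (adjusted p = 0.00644). With offsets for GC content and length they were −0.75 and −0.65, both called, so the level of LMNA in senescence depends on how the GC trend of these libraries is treated.

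Because each lamin was counted in the same library, their proportions do not depend on the scaling between libraries. The exons of LMNA, LMNB2 and LMNB1 differ in GC content (58.8%, 62.3% and 50.3%), and the part of the GC trend in these proportions was not tested. Per kb of exons, LMNA held 74.6% ± 0.40 (SD, n = 3) of the lamin counts in young cells with the empty vector, LMNB2 18.1% ± 0.37 and LMNB1 7.23% ± 0.051. The B-type share was 25.4% ± 0.40 in these cells, 25.0% ± 1.13 in young cells with TRF2 and 20.02% ± 0.36 after siLMNB1. After siLMNB1 the target LMNB1 held 0.449% ± 0.047 and LMNB2 19.6% ± 0.32. The lower B-type share there thus lay in LMNB1 alone and was set by the design. In senescent cells the B-type share was 16.6% ± 3.08 with the empty vector and 16.9% ± 0.23 with TRF2. The young control libraries spanned 24.2% to 26.3% and the senescent ones 13.0% to 18.6%, with no overlap. The shares are given as a description, and no test was run on them.

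Among the B-type lamins alone, LMNB1 made up 28.5% ± 0.35 in young cells with the empty vector and 28.3% ± 1.15 with TRF2. It made up 2.24% ± 0.20 after siLMNB1, 4.42% ± 0.23 in senescent cells with the empty vector and 2.97% ± 0.45 with TRF2. In the third senescent library the ratio of LMNA to LMNB2 per kb was 6.96, against 3.85 to 5.19 in the other 14 libraries. Lengths of the longest transcript in place of merged exons give lower shares in all groups, with the same order (14.6%, 14.3%, 11.4%, 9.30% and 9.48% B-type).

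**Figure D2:**
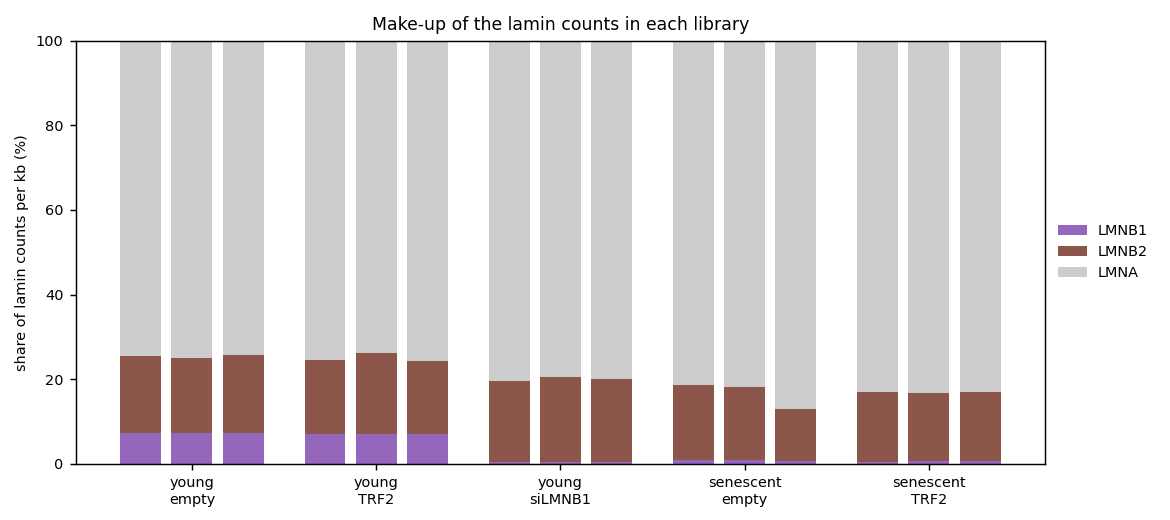
Share of the lamin counts per kb (y axis, percent) held by LMNB1, LMNB2 and LMNA in each of the 15 libraries, 3 bars a group. The B-type share (LMNB1 and LMNB2) is 24.2% to 26.3% in the young control libraries and 13.0% to 18.6% in the senescent ones, where LMNB1 is at most 0.836%.

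LBR (ENSG00000143815, GRCh38 chr1:225401502-225428925, minus strand) encodes the lamin B receptor, a membrane protein that binds B-type lamins and heterochromatin protein 1 and that also has sterol C14 reductase activity in cholesterol synthesis. It was at 86.6, 81.3 and 84.6 CPM in young cells with the empty vector and at 80.3, 81.4 and 69.8 CPM with TRF2. After siLMNB1 it was at 22.5, 23.3 and 23.2 CPM. In senescent cells it was at 30.0, 29.8 and 18.5 CPM with the empty vector and at 33.3, 31.8 and 35.1 CPM with TRF2. The knock-down and senescent libraries did not overlap with the young control libraries.

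LBR fell by 1.69 on the log2 scale in senescence with the empty vector (SE 0.14, adjusted p = 2.93e-08), by 1.21 with TRF2 (SE 0.14, adjusted p = 1.27e-06) and by 1.87 after siLMNB1 (SE 0.14, adjusted p = 9.32e-08). After siLMNB1 it ranked at position 108 from the lowest of 15799 fold changes, compared with positions 939 and 1634 in the senescence comparisons. Between senescent cells with the empty vector and knock-down cells the difference was 0.18 (95% interval −0.13 to 0.49, adjusted p = 0.271). That difference was 0.36 without the third senescent library (adjusted p = 0.000424) and 0.51 with the offsets (adjusted p = 0.000256).

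The sterol C14 reductase step of LBR is shared with TM7SF2, and CYP51A1 and MSMO1 act directly before and after it. TM7SF2 rose where LBR fell: it was at 11.3, 8.22 and 10.4 CPM in young cells with the empty vector, at 24.9, 27.4 and 28.4 CPM after siLMNB1 and at 44.4, 35.3 and 46.7 CPM in senescent cells with the empty vector. In senescent cells with TRF2 it was at 35.2, 38.5 and 39.1 CPM. Its log2 fold changes were 2.08 (SE 0.13, adjusted p = 1.26e-09) and 2.08 (SE 0.13, adjusted p = 1.16e-09) in senescence and 1.44 after siLMNB1 (SE 0.13, adjusted p = 7.25e-07). With the offsets the changes of TM7SF2 were 1.26, 1.53 and 1.28. CYP51A1 and MSMO1 rose in senescence, by 0.79 and 0.53 with the empty vector (adjusted p = 0.00198 and 0.000596) and by 1.03 and 1.05 with TRF2 (adjusted p = 0.000239 and 7.3e-07). With the offsets CYP51A1 and MSMO1 rose by 1.27 and 1.20 and, with TRF2, by 1.46 and 1.69. After siLMNB1 their log2 fold changes were −0.11 (adjusted p = 0.717) and 0.16 (adjusted p = 0.285).

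**Figure D3:**
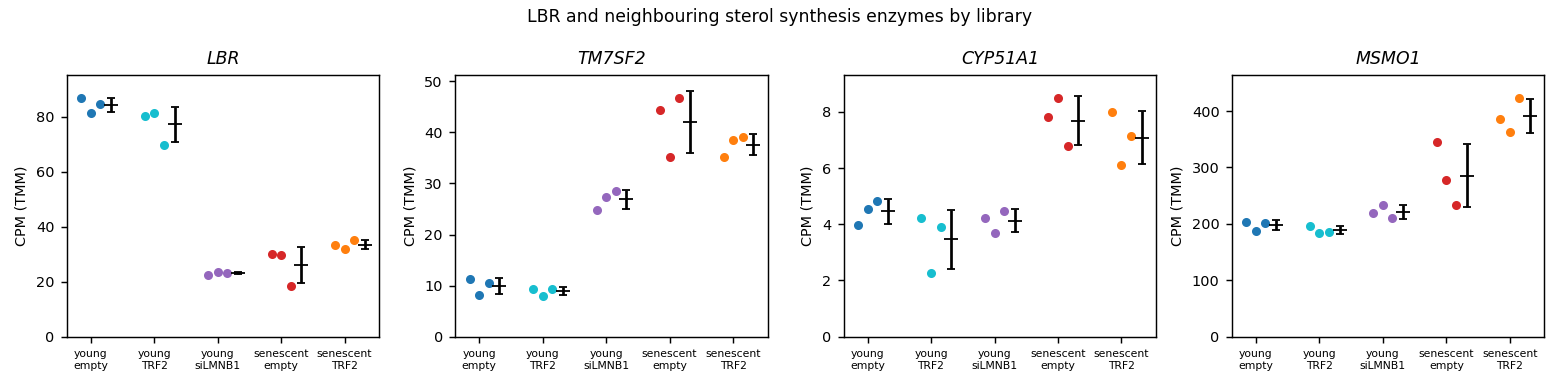
Level (y axis, CPM with TMM factors) of LBR, TM7SF2, CYP51A1 and MSMO1 in each library by group, with the group mean and SD (n = 3) in black. LBR is at most 35.1 CPM and TM7SF2 at least 24.9 CPM in each knock-down and senescent library, while CYP51A1 and MSMO1 are higher in the senescent groups.

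TMPO (ENSG00000120802, GRCh38 chr12:98515579-98550351, plus strand) encodes the LAP2 proteins, which bind lamins and BANF1 and include a form in the nuclear interior. It was at 94.5, 92.5 and 86.8 CPM in young cells with the empty vector and at 72.0, 80.0 and 77.7 CPM with TRF2. After siLMNB1 it was at 44.2, 38.0 and 41.4 CPM. In senescent cells it was at 16.5, 19.6 and 14.6 CPM with the empty vector and at 15.3, 16.9 and 17.9 CPM with TRF2. The knock-down libraries lay between the young and the senescent ones without overlap.

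TMPO fell by 2.43 on the log2 scale in senescence with the empty vector (SE 0.11, adjusted p = 2.25e-11), fell by 2.19 with TRF2 (SE 0.11, adjusted p = 6.19e-11) and fell by 1.15 after siLMNB1 (SE 0.10, adjusted p = 7.44e-07). Against knock-down cells, senescent cells with the empty vector had a log2 fold change of −1.29 (SE 0.11, adjusted p = 3.99e-08), and −0.76 with the offsets. With the offsets its log2 fold changes in senescence were −1.91 and −1.81. Of its exonic bases, 7.60% overlap a gene on the opposite strand, so some of its reads could be assigned to either gene if the counting did not use strand.

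Among the other LEM domain genes, emerin (EMD) was at 56.4 to 60.1 CPM in young cells with the empty vector and at 57.5 to 82.7 CPM in senescent cells with the empty vector, and these ranges overlapped. Its log2 fold changes were 0.23, 0.12 and 0.20 in the order above (adjusted p = 0.108, 0.39 and 0.207). With the offsets they were −0.51 and −0.25 in senescence, both called, so the sign for EMD turned. LEMD3, also named MAN1, binds SMAD proteins and was at 36.7, 38.8 and 37.5 CPM in young cells with the empty vector and at 24.1, 27.9 and 25.3 CPM after siLMNB1. It fell by 0.55 on the log2 scale after siLMNB1 (SE 0.16, adjusted p = 0.0139), a call lost without siLMNB1 replicate 1 (adjusted p = 0.0583). In senescent cells with the empty vector LEMD3 was at 35.1, 34.7 and 19.4 CPM, with a log2 fold change of −0.34 (adjusted p = 0.0665) that became −0.13 without the third library and −0.01 with the offsets. With TRF2 its log2 fold change was 0.02 (adjusted p = 0.915), and with the offsets it rose by 0.34 (adjusted p = 0.0184).

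BANF1, the small DNA-binding protein that LEM domains hold, was at 159, 152 and 153 CPM in young cells with the empty vector and at 116, 110 and 172 CPM in senescent cells with the empty vector. The log2 fold changes were −0.22, −0.25 and −0.17 (adjusted p = 0.17, 0.123 and 0.355). Without the third senescent library the first was −0.47 (adjusted p = 0.000181), and with the offsets the values were −0.83, −0.50 and −0.35, all called. Per kb BANF1 was the second most abundant of the 10 genes, at 103 CPM per kb in young cells with the empty vector compared with 170 for LMNA and 6.76 for LEMD3, the least abundant.

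The SUN domain genes link the lamina to KASH proteins of the outer membrane. SUN1 was at 77.7 to 86.8 CPM in young cells with the empty vector, at 71.9 to 86.6 CPM in senescent cells with the empty vector and at 91.4 to 94.4 CPM after siLMNB1. In young cells with TRF2 it was at 74.5 to 95.6 CPM. Its log2 fold changes were −0.02 (95% interval −0.24 to 0.20), 0.01 and 0.18 (adjusted p = 0.858, 0.917 and 0.171). SUN2 was at 65.6, 66.8 and 70.0 CPM in young cells with the empty vector and at 85.4, 79.5 and 80.3 CPM in senescent cells with the empty vector. It rose by 0.28 on the log2 scale (SE 0.09, adjusted p = 0.0105), but with the offsets it fell by 0.49, and the call was lost with no filter on low counts (adjusted p = 0.0604) or with only the libraries compared in the fit (adjusted p = 0.0522). With TRF2 and after siLMNB1 the log2 fold changes of SUN2 were 0.10 (adjusted p = 0.34) and −0.01 (adjusted p = 0.959), but with the offsets SUN2 fell by 0.51 in senescence with TRF2. Of the exonic bases, 23.6% in SUN2 overlap a gene on the opposite strand and 15.5% in SUN1 overlap a gene on the same strand. Genes with over 50% of such same-strand overlap were below −3 on the log2 scale in 24.4% of cases in senescence with the empty vector, compared with 1.67% of genes with an overlap of up to 20%, as in SUN1, and 1.52% of genes without any. After siLMNB1 the share was 0% above 50% overlap. A part of counting in these values was not tested.

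**Figure D4:**
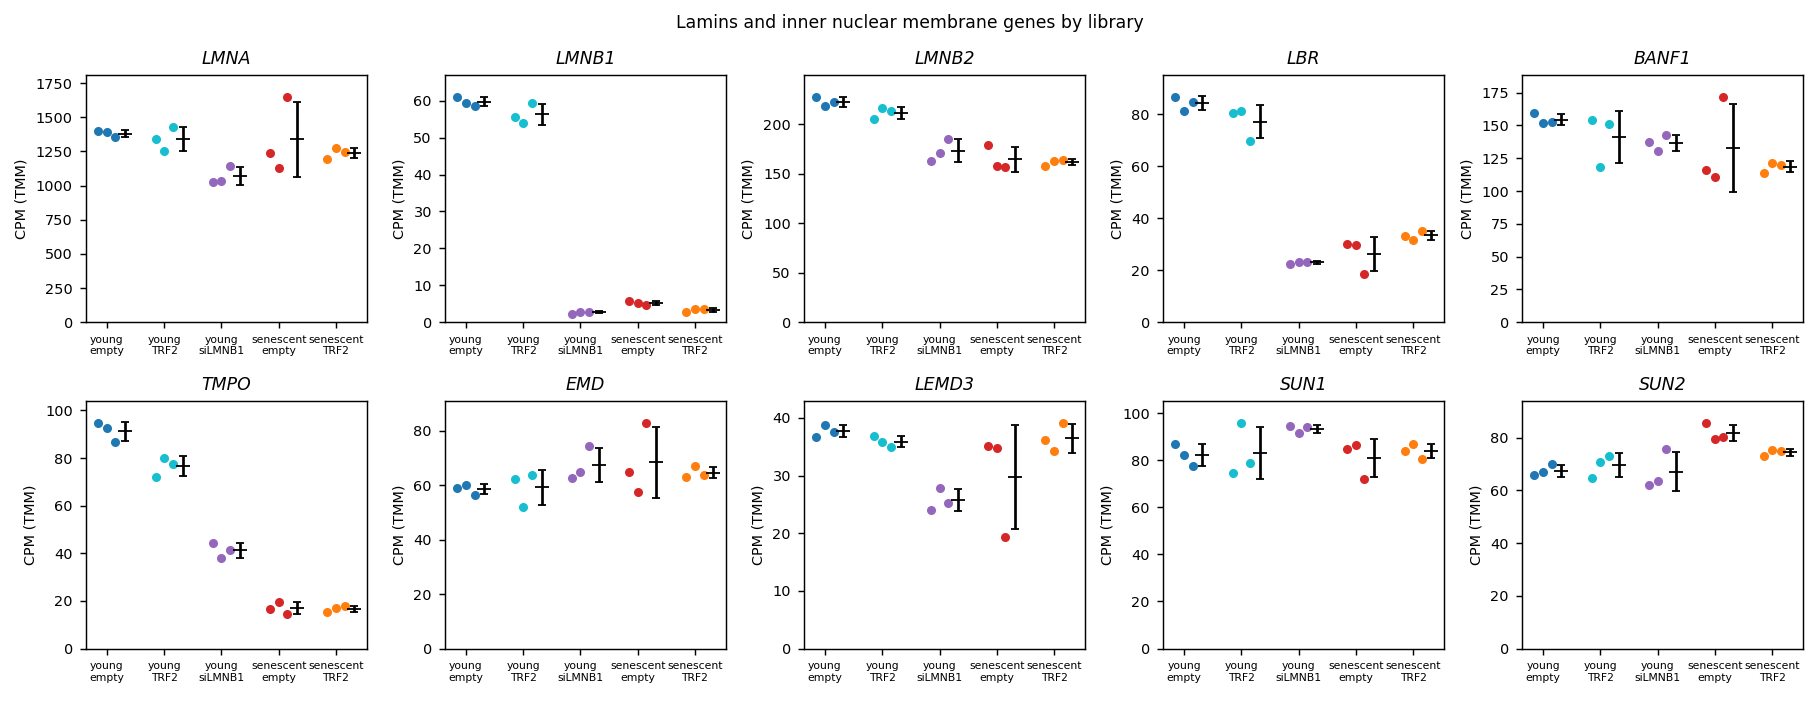
Level (y axis, CPM with TMM factors, each panel from 0) of the 10 genes in each of the 15 libraries by group, with the group mean and SD (n = 3) in black. LMNB1, LBR and TMPO drop in the knock-down and senescent groups, and the third senescent library with the empty vector lies apart from its replicates for LMNA (1648 CPM), BANF1 (172 CPM) and LEMD3 (19.4 CPM).

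Since the falls of LMNB1 and TMPO stood out, the bases before their annotated starts are shown (120 bases, RefSeq promoters on GRCh38.p14, 5′ to 3′ on the strand of the gene, plus in both cases). Capitals mark CCAAT, the core of the box bound by NF-Y.
LMNB1, chr5:126776503-126776622: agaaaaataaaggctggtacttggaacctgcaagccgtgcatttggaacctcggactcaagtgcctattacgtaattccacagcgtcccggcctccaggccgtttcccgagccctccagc
TMPO, chr12:98515453-98515572: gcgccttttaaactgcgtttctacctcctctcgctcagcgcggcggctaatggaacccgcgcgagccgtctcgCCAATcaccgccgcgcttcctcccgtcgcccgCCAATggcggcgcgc
These stretches lie upstream of the first RefSeq start of each gene, and LMNB1 has a second window further downstream.

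On both strands of the 300-base windows (250 before to 50 after the start), 4 sets of letters were searched: TTTGAA (the CHR element of cell cycle genes), TTTNNCGC (a core of E2F sites), CCAAT and GGGCGG (the GC box). Of the 10 genes, 9 had 15 windows in the table, all but SUN1. TTTGAA was found in 2 of the 15 windows (LMNB2 and SUN2), TTTNNCGC in 2 (LMNA and LEMD3), CCAAT in 7 and GGGCGG in 12. Over all 35116 windows the shares were 15.2%, 6.89%, 34.6% and 45.0%. TMPO held CCAAT at 2 positions and GGGCGG at 1. The first LMNB1 window held none of the 4, while the second held CCAAT at 1 position and GGGCGG at 4. LBR and BANF1 held none. These matches are descriptions of the letters and not binding sites.

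TRF2, the telomere-binding protein, was also compared within each state. In young cells with TRF2 against the empty vector, 0 of the 10 genes were called (background 0.177%), with log2 fold changes from −0.25 (TMPO, unadjusted p = 0.0247, adjusted p = 0.416) to 0.04 (SUN2), and TMPO was the only one at an unadjusted p under 0.05. With DESeq2 0 of the 10 genes were called, where 89 of 15756 genes rose and 49 fell. With only these 6 libraries in the fit, TMPO was called (log2 fold change −0.25, adjusted p = 0.0392), where 296 of 14357 genes rose and 178 fell. In senescent cells, 1 of 10 was called (background 11.3%): LMNB1 was lower with TRF2 by 0.62 on the log2 scale (SE 0.13, adjusted p = 0.00703). This call was lost when only these 6 libraries were fitted (adjusted p = 0.175). In that fit 2 of 14600 genes were called higher and 0 lower, so the loss is not particular to LMNB1. LBR was higher by 0.36 (SE 0.14, adjusted p = 0.104), and the other 8 log2 fold changes lay between −0.16 and 0.30.

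The difference between the senescence effects without and with TRF2 was tested as an interaction. Of the 10 genes, 0 passed in edgeR (background 1.13%) and 0 in DESeq2. In DESeq2 the interaction was called above 0 for 347 and below 0 for 140 of 15140 genes. At an unadjusted p under 0.05 were LMNB1 (0.53, SE 0.17, adjusted p = 0.14) and LBR (−0.48, SE 0.19, adjusted p = 0.236). Senescent cells with TRF2 also had reached a later PD than those with the empty vector, and 17 of 18 genes high in dividing cells were lower in them (background 6.41% lower), with summed levels of 246 to 273 CPM against 350 to 396 CPM. A part of these differences in the value of LMNB1 was not tested.

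Senescent cells with the empty vector and young cells with siLMNB1 were set side by side. LMNB1 was higher in the senescent cells by 0.94 on the log2 scale (SE 0.13, adjusted p = 1.24e-05), LMNA by 0.33 (adjusted p = 0.0177) and SUN2 by 0.28 (adjusted p = 0.00908), whereas TMPO was lower. These are 3 genes higher and 1 lower, where 31.1% and 31.8% of all genes were called. With the offsets LMNA and SUN2 were lower by 0.25 and 0.34 (log2 fold changes −0.25 and −0.34). For LMNB2 the difference was −0.07 (95% interval −0.24 to 0.10) and for EMD 0.02 (95% interval −0.24 to 0.29), but with the offsets they were −0.74 and −0.54, and all 10 genes were called. Of all 15799 genes, 5111 were called higher and 4156 lower with the offsets.

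Genes high in dividing cells were also lower in the knock-down and senescent groups. The 18 genes of this list, among them MKI67, TOP2A and CDK1, summed to between 1452 and 1520 CPM in young cells with the empty vector and to between 1226 and 1295 CPM with TRF2. They summed to between 798 and 831 CPM after siLMNB1 and to between 246 and 396 CPM in senescent cells. Of the 18, 17 fell in senescence with the empty vector (background 31.9%), 18 with TRF2 (background 30.1%) and 17 after siLMNB1 (background 16.1%). MKI67 fell by 3.27, 4.60 and 1.39 on the log2 scale (adjusted p = 1.46e-07, 7.02e-09 and 0.00122). In young TRF2 replicate 2 MKI67 was at 111 CPM, against 43.7 and 49.9 CPM in replicates 1 and 3. The summed level of the 18 genes was lower in senescent than in knock-down cells, as was that of TMPO. LMNB1 was higher in senescent cells, but in knock-down cells it is the target of the siRNA. The part of cell division in the levels of the lamina genes was not tested. Of 7 senescence genes, 5 rose in senescence with the empty vector, led by MMP3, CDKN2A (p16) and CDKN2B (log2 fold changes 2.70, 1.20 and 1.19), and CXCL8 fell by 1.99. Of all genes tested, 32.7% rose and 31.9% fell in that comparison. With the offsets the log2 fold changes of CDKN2A and CXCL8 were 0.75 and −0.98. After siLMNB1 3 of the 7 rose (background 16.4%), among them CDKN2A (0.45, adjusted p = 0.0442), a call lost with each single library left out (adjusted p 0.0584 to 0.15).

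Neighbours of the set at the nuclear envelope were counted against the same shares of all genes (32.7% higher and 31.9% lower in senescence with the empty vector, 28.2% and 30.1% with TRF2, 16.4% and 16.1% after siLMNB1). Of 28 tested nucleoporins, subunits of the nuclear pore, 23 fell and 0 rose in senescence with the empty vector (median log2 fold change −0.72), 22 fell and 1 rose with TRF2 (−0.46) and 18 fell and 0 rose after siLMNB1 (−0.35). The largest falls in senescence with the empty vector were those of NDC1, NUP35 and SEH1L (log2 fold changes −1.85, −1.57 and −1.49), and NUP35 was at −1.01 with the offsets. After siLMNB1 they were those of NUP43, AHCTF1 and NUP160 (−1.55, −0.97 and −0.93). NUP43 was at 34.0, 30.8 and 35.9 CPM in young cells with the empty vector, 12.7, 11 and 10.7 CPM after siLMNB1 and 18.7, 20.3 and 22.8 CPM in senescent cells with the empty vector. POM121, the nucleoporin that rose with TRF2 (0.34, adjusted p = 0.0399), lost that call with each single library left out (adjusted p 0.0566 to 0.137) and was at −0.13 with the offsets. It has near-identical copies and its counts are uncertain. The siLMNB1 count was 12 with library totals only, where 2065 of all 15799 genes fell, and 22 with the offsets, where 3841 fell.

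Of 7 other inner nuclear membrane genes, 3 rose (LEMD2, TMEM201 and ANKLE2, by 0.68, 0.51 and 0.43 on the log2 scale) and 2 fell (NRM, nurim, by 0.88, and TMEM43 by 0.52) in senescence with the empty vector, shares near those of all genes (32.7% and 31.9%). With the offsets TMEM201 fell by 0.35, NRM fell by 1.48 and LEMD2 rose by 0.21. With TRF2 LEMD2, TMEM201 and ANKLE2 rose by 0.30, 0.41 and 0.36 and NRM fell by 0.86, but with the offsets TMEM201 fell by 0.24 and LEMD2 was at −0.01. The call of LEMD2 with TRF2 was also lost without young TRF2 replicate 1 or 3 or senescent TRF2 replicate 2 (adjusted p 0.0665 to 0.114). After siLMNB1 0 rose and 2 fell, TOR1AIP2 (LULL1, an activator of torsins, which sits in the endoplasmic reticulum as well) by 0.65 (adjusted p = 1.94e-05) and LEMD2 by 0.36 (adjusted p = 0.0157), the latter lost without young replicate 2 (adjusted p = 0.0677) or siLMNB1 replicate 2 (adjusted p = 0.0775). LEMD2, a LEM domain protein that acts in sealing of the envelope after mitosis, was higher in senescent cells with the empty vector than in knock-down cells by 1.04 (adjusted p = 3.63e-07).

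Of 5 tested genes for KASH proteins, the partners of SUN proteins, and torsins, 2 rose and 2 fell in senescence with the empty vector, not far from the shares of all genes (32.7% and 31.9%). Nesprin-2 (SYNE2) fell by 1.54 (adjusted p = 6.42e-06) and SYNE1 by 0.54 (adjusted p = 0.0291), the latter a call lost without the third senescent library, where it was −0.30, without young replicate 1 or 2 (adjusted p = 0.0717 and 0.0568) and with only the libraries compared (adjusted p = 0.108). TOR1B and TOR1A, ATPases of the envelope and endoplasmic reticulum, rose by 0.60 and 0.34. With TRF2 both torsin genes rose, by 0.78 and 0.40, and SYNE2 fell by 1.30. After siLMNB1 SYNE3 fell by 0.84 (adjusted p = 0.000491) and SYNE1 rose by 0.64 (adjusted p = 0.0219), a call lost without young replicate 2 or 3 or siLMNB1 replicate 1 or 2 (adjusted p 0.0584 to 0.0927).

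Lamins with a farnesyl tail depend on FNTA and FNTB for its addition, RCE1 for trimming and ICMT for methylation, and ZMPSTE24 cuts prelamin A. Of these 5 genes, FNTB fell by 1.12 (adjusted p = 0.000676) and ZMPSTE24 by 0.40 (adjusted p = 0.00496) in senescence with the empty vector. With the offsets the log2 fold change of ZMPSTE24 was 0.11, and its call was lost with only the libraries compared (adjusted p = 0.0553). FNTB shares exons with the readthrough gene CHURC1-FNTB, so its counts are uncertain. With TRF2 FNTB fell by 1.17 and ICMT rose by 0.31. After siLMNB1 RCE1 and ICMT fell by 0.59 and 0.37 and FNTA rose by 0.48.

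Among 7 genes for chromatin partners of lamina proteins, 4 fell and 1 rose in senescence with the empty vector. VRK1, the kinase that phosphorylates BANF1, fell by 1.73 (adjusted p = 1.92e-09), CBX5, which encodes the LBR partner HP1-alpha, by 1.26 (adjusted p = 2.7e-06) and RB1, whose product binds LAP2-alpha with A-type lamins, by 1.02 (adjusted p = 0.000118). With the offsets the log2 fold change of RB1 was −0.43. PRR14, which tethers heterochromatin to the lamina, rose by 0.50 (adjusted p = 0.00194), but fell by 0.24 with the offsets. With TRF2 4 fell and 0 rose. After siLMNB1 RB1 and VRK1 fell by 0.88 and 0.52 (adjusted p = 0.00132 and 0.00133), while CBX5 was at −0.06 (adjusted p = 0.794).

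**Figure D5:**
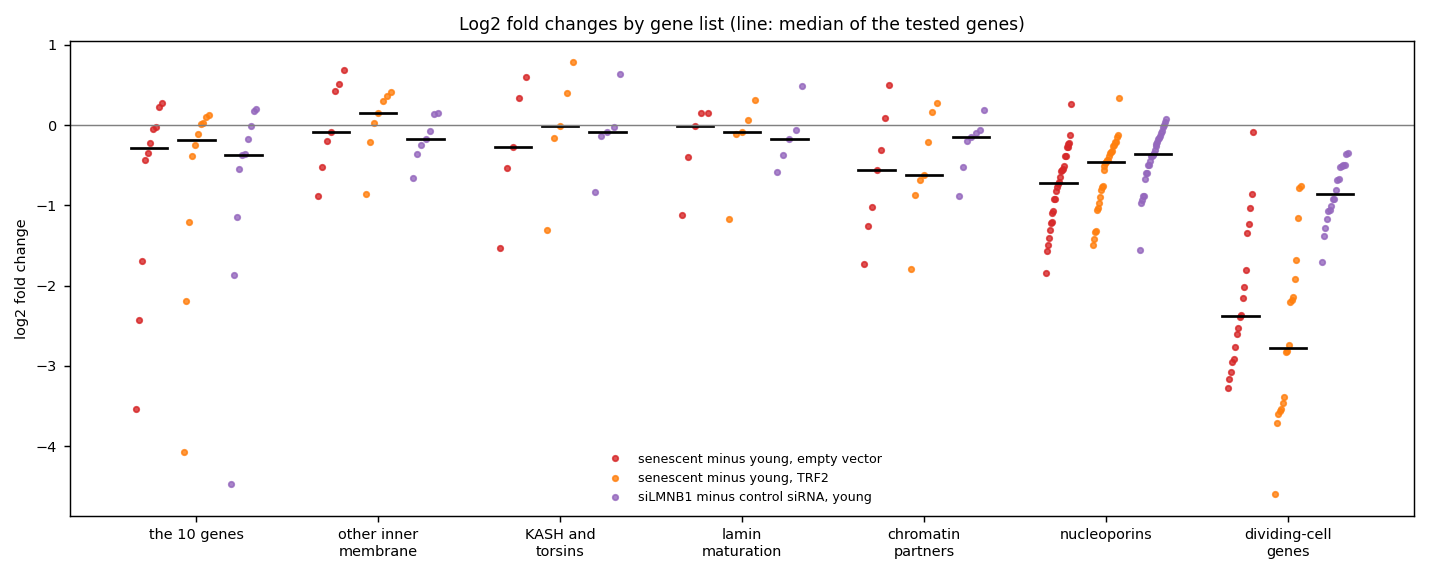
Log2 fold change (y axis) of each tested gene of the 10 and of 6 lists of neighbouring or dividing-cell genes in the 3 comparisons, with 1 point a gene and a black line at the median. The dividing-cell genes lie lowest in senescence, most nucleoporins lie below 0, and the 10 genes have medians of −0.28, −0.18 and −0.37 with LMNB1 far below the rest.

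The genes whose pattern was most like that of LMNB1 were named by the root mean square difference of log2 CPM, centred over the 15 libraries, among 13185 protein-coding genes. They were IL1B, NIBAN1, CXCL5, WNT7B and CHI3L1, at differences of 0.705 to 0.946. IL1B, an inflammatory cytokine, had log2 fold changes of −2.91, −4.69 and −3.82 in senescence with the empty vector, senescence with TRF2 and after siLMNB1. Of the other 9 genes LBR was nearest to LMNB1 at 1.24, followed by TMPO at 1.27. The 15 libraries include those with siLMNB1, where LMNB1 was low as the target. The measure favours genes that fall in the same groups as LMNB1, so such falls of the genes named are no separate result. LMNA was matched far more closely, by COTL1, IDH3B, CALM3, SELENOK and CLIC1 at 0.067 to 0.0738. BANF1 was the nearest of the other 9 genes to LMNA, at 0.164, and LMNB1 the farthest, at 1.89. LMNA varied little over the libraries, and a small difference is easier to reach for such a gene.

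The order of the groups differed between the genes. For LMNB1 the levels ran from young with the empty vector and young with TRF2, which overlapped, through senescent with the empty vector to senescent with TRF2 and siLMNB1, which overlapped. LBR ran from the young controls, which overlapped, through senescent with TRF2 to senescent with the empty vector and siLMNB1, which overlapped. For TMPO all neighbours in the order were apart, except the 2 senescent groups at the end. For EMD, LEMD3 and BANF1 the libraries of all neighbouring groups overlapped, and for SUN1 the siLMNB1 libraries alone were apart from the next group, the senescent cells with TRF2. They were not apart from all groups, since young TRF2 replicate 2 was above them at 95.6 CPM of SUN1.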

How the data were processed

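RNA-seq counts of 15 libraries from MRC-5 fibroblasts were analysed. After trimming with Trimmomatic, the authors mapped reads with STAR to GRCh38, and the deposited values are raw counts of reads per gene that were not normalized. The annotation release and the strand setting of the counting are not given in the sources used here. Groups came from the labels. Genes were named with GENCODE 44, which lacks 324 of the 57272 genes in the table.

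Counts were fitted with edgeR 4.0.16 in R 4.3.3 after filterByExpr and TMM normalization, in one model of the 15 libraries with a mean for each of the 5 groups. Each contrast was tested by the quasi-likelihood test of edgeR, adjusted with the Benjamini-Hochberg method over the 15799 genes kept. A gene was called at an adjusted p below 0.05. The authors' fold thresholds (1 for senescence, 0.58 for siLMNB1, log2 scale) served as a second rule. Intervals are 95% intervals from the SE and a t distribution with 10 degrees of freedom. The p-values come from the quasi-likelihood test and not from this distribution, so they can differ from the intervals. Levels are CPM, reads per 1000000 counted reads with TMM factors, and per kb they were divided by the merged exon length. Offsets for GC content and length came from loess curves (span 0.3, prior count 1) in each library against young cells with the empty vector.

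The 10 genes and all lists were chosen with earlier results of these data known. All 10 genes are named in every comparison, and from each list the called genes with the largest changes. The paper calls the replicates biological, while the labels name no separate cultures, so p-values measure the spread between these samples. Total counts ranged from 26725885 to 43116046 per library. Alternatives were RLE scaling, library totals, no filter, the offsets, genes without exonic overlap, only the libraries compared, a replicate block, DESeq2 1.42.0, another gene length and each library left out. Recounting the lists of neighbouring genes under these alternatives was chosen after seeing the data. The steps were tested on simulated data. Python 3.11.15 with numpy 2.4.6, pandas 2.3.3, scipy 1.17.1 and matplotlib 3.10.9 and limma 3.58.1 served for the rest.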

Additional observations from a re-analysis of the deposited data

How the results depend on the processing

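LMNB1, LBR, TMPO and LMNB2 kept their direction and their call in both senescence comparisons and after siLMNB1 under each alternative that gave them a value (TMPO and LMNB2 were left out of the fit of genes without exonic overlap), with falls of LMNB1 between 3.49 and 4.56 on the log2 scale. With offsets for GC content and length, the number of the 10 genes called was 8 in senescence with the empty vector (5 as reported), 9 with TRF2 (4), 2 for TRF2 in senescent cells (1) and 10 for senescent against siLMNB1 cells (4). Of all 15799 genes, 4467 rose and 4603 fell with the offsets in the first of these comparisons and 4694 and 4050 in the second. In the third they were 1381 and 1107, and in the fourth 5111 and 4156. The counts of the 10 genes were the same with the replicate block and the offsets together. The offsets turned the sign of EMD and SUN2 in senescence with the empty vector (−0.51 and −0.49 on the log2 scale, with the replicate block −0.51 and −0.49), of both with TRF2 (−0.25 and −0.51, with the block −0.25 and −0.51), and of LMNA, EMD and SUN2 for senescent against siLMNB1 cells (−0.25, −0.54 and −0.34, with the block −0.26, −0.54 and −0.34). The cause was not tested. Among genes without exonic overlap, where 6 of the 10 remained, 2 were called in senescence with the empty vector, 2 with TRF2 and 2 for senescent against siLMNB1 cells. Of the 7571 genes in that fit, 2502 rose and 2354 fell, 2199 and 2258, and 2417 and 2370 in the same order. The fold thresholds left 3 genes in senescence with the empty vector and 3 after siLMNB1. With only the libraries compared, 1 gene was called for TRF2 in young cells, 0 for TRF2 in senescent cells and 2 for senescent against siLMNB1 cells. In these fits 296 genes rose and 178 fell of 14357, 2 and 0 of 14600, and 3978 and 3955 of 14873. With no filter on low counts, 2 were called for TRF2 in senescent cells, where 1309 rose and 1323 fell of 31776. Leaving out each library in turn gave 5 to 7 calls in senescence with the empty vector, 4 to 5 with TRF2, 4 to 6 after siLMNB1, 0 to 0 for TRF2 in young cells, 1 to 2 for TRF2 in senescent cells, 0 to 1 for the interaction (LBR without senescent replicate 1) and 2 to 6 for senescent against siLMNB1 cells (2 without siLMNB1 replicate 1 or 2). The calls over all genes moved as well, among 16157 to 16274 genes tested. In senescence with the empty vector 4737 to 5338 rose and 4663 to 5356 fell. With TRF2 these were 3976 to 4208 and 4253 to 4498, and after siLMNB1 1921 to 2099 and 2025 to 2121. TRF2 gave 1 to 16 and 0 to 2 in young cells, and 275 to 2226 and 444 to 2185 in senescent cells. The interaction gave 5 to 1100 and 1 to 989, and senescent against siLMNB1 cells 4450 to 5091 and 4616 to 5344. Without senescent empty-vector replicate 1, the interaction was called above 0 for 1100 and below 0 for 989 of 16265 genes. With all libraries these were 151 and 28 of 15799.

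The B-type share was 14.6%, 14.3%, 11.4%, 9.30% and 9.48% with the longest transcript and 16.96%, 16.7%, 14.1%, 11.5% and 11.8% without length, for young empty vector, young TRF2, siLMNB1, senescent empty vector and senescent TRF2. Left-out libraries moved the senescent empty-vector share between 15.6% and 18.4%. Same-numbered libraries had correlations of their deviations between −0.0945 and 0.0615, so the numbers were not taken to pair samples. The replicate block alone gave 5, 4 and 6 calls in the 3 main comparisons, as without it. Of 1082 values for single genes, 1007 kept their call and direction or were called in neither fit. Of these, 64 changed sign without a call.

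At 72 to 152 reads, LMNB1 in knock-down and senescent cells rests on few counts.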
